A study of Homo sapiens with 6 samples.

Results

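The genes described here are 10 ligands, receptors and matrix partners of transforming growth factor beta (TGF-beta) and activin, taken by name from a table of 60843 genes. They are the ligand genes TGFB1, TGFB2, TGFB3 and INHBA, and the receptor genes TGFBR1, TGFBR2 and TGFBR3. The others are LTBP1 and LTBP2, named as latent TGF-beta binding proteins, and the induced matrix gene TGFBI. Each name matched 1 row, and all 10 passed the filter on low counts. They were followed in 6 RNA sequencing libraries of wild-type BJ cells, an established human foreskin fibroblast line, with 2 libraries at each of days 0, 2 and 5. On day 0 the cells were in DMEM with 10% fetal bovine serum on poly-D-lysine. They then received neuronal induction medium with 10 µM forskolin, an activator of adenylyl cyclase, until day 2. From day 2 to day 5 they received neuronal maturation medium, again with 10 µM forskolin. The labels call all 6 libraries reprogramming and name the cells of days 2 and 5 FiNs, or induced neuron cells. Libraries in the new media without forskolin, or with serum to the end, were not analysed here, and the effects of time, medium and forskolin cannot be told apart.

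TGF-beta ligands are secreted in a latent form, held by their own propeptide and tied to matrix fibrils by latent TGF-beta binding proteins. Once freed, a ligand binds the type II receptor, which recruits and phosphorylates the type I receptor, and that kinase activates SMAD2 and SMAD3 together with SMAD4. Activins, dimers of inhibin beta chains, reach the same SMADs through their own receptors and are neutralised by follistatin. In fibroblasts the pathway is known for driving matrix synthesis and the contractile myofibroblast state.

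The libraries held 17605858 to 27953926 counts, with the day 5 pair the shallowest, and 3 counts stood for 0.103 to 0.180 CPM (counts scaled by library total and TMM factor). These limits cover counting error only. Nothing in the labels tells if both libraries of 1 day were grown apart. The p-values set differences between days against the spread between libraries of a day, and that spread may be technical variation only. Fibroblast markers stood at a summed 19416 and 19761 CPM over 12 genes on day 0, 16965 and 17194 on day 2, and 30573 and 30978 on day 5. That sum was led by collagens, with COL1A2 at a mean of 5053 CPM on day 0 and 14326 on day 5, and the genes themselves were split. From the first day to the last, 5 of the 12 fibroblast markers rose, PDGFRA and PDGFRB among them, and 7 fell, VIM, THY1 and S100A4 among them, with a median log2 fold change of -0.25. The 12 neuronal markers summed to 252 and 261 CPM on day 0, 155 and 162 on day 2, and 112 and 115 on day 5, with STMN2 and ELAVL4 at 0 counts in all 6 libraries. Most of that sum was TUBB3, at a mean of 226 CPM on day 0 and 87.4 on day 5. Of these 12 genes, 5 exceeded 1 CPM in any library and were tested, and 3 of them, TUBB3, MAP2 and SYT1, fell by day 5. SNAP25 rose by 1.64 ± 0.13 on the log2 scale (edgeR adjusted p = 6.9e-09), with means of 5.89 CPM on day 0 and 18.3 on day 5. SYN1 was higher on day 2 (0.81 ± 0.27, edgeR adjusted p = 0.012) and not called on day 5. Most of these markers thus did not match the name induced neuron. Of the defining genes of other cell types, CD3E, KRT5 and KRT14 had 0 counts in all 6 libraries, and PTPRC had 2 counts, in 1 library of day 5. The 5 leukocyte markers, nearly all CD68, summed to 96.7 to 98.3 CPM on day 0, 132 to 134 on day 2 and 45.5 to 49.7 on day 5. The 5 endothelial markers went from 75.7 to 76.9 CPM through 86.5 to 87.7 to 137 to 138. Most of that sum was TEK, at means of 70.4, 78.1 and 74.5 CPM and not called from day 0 to day 5. KDR alone rose by day 5, from a mean of 4.16 CPM on day 0 to 61.8. VWF was called in no comparison, and PECAM1 and CDH5 had too few counts to be tested. The 5 epithelial markers, led by KRT8, stood at 18.9 to 19.6, 31.2 to 32.1 and 14.4 to 16.6 CPM. The part of these cell types in the changes below was not tested. In bulk RNA, fewer cells of a type and less RNA per cell cannot be told apart.

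RefSeq promoter windows (GRCh38.p14) were found for all 10 genes, 21 windows of 250 bases upstream of an annotated start. They were searched on both strands for the cAMP response element (CRE) TGACGTCA, its half-site TGACG, the AP-1 element TGANTCA, the SMAD palindrome GTCTAGAC and the TATA letters TATAAA. A full CRE holds the half-site on both strands. The 3 windows below were chosen after the search, because they hold the full CRE, or the half-site together with TATAAA. Capitals mark those letters and TATAAA, and a half-site on the reverse strand reads CGTCA. The TGFB3 window is chr14:75981996-75982245 (minus strand), that of TGFB2 chr1:218345086-218345335 (plus strand) and that of LTBP1 chr2:32946703-32946952 (plus strand).
TGFB3: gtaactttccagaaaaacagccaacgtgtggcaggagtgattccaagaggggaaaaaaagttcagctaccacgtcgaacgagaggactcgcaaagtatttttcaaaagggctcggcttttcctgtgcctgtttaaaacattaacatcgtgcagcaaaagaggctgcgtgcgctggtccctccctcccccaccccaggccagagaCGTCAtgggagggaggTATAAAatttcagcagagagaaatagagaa
TGFB2: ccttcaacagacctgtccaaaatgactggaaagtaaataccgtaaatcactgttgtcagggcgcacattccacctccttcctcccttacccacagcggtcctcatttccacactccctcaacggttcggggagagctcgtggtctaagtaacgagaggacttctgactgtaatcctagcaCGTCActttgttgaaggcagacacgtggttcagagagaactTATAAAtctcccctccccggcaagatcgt
LTBP1: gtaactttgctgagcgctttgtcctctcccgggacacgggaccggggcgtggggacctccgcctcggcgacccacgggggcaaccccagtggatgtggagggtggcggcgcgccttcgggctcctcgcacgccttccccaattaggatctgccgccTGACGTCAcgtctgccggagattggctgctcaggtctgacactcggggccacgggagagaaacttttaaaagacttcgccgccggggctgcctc
In TGFB3 the half-site lay 46 to 42 bases before the start and the TATA letters 30 to 25 bases before it. TGFB2 had the same pair of motifs, the half-site 70 to 66 bases and the TATA letters 29 to 24 bases before the start, in a window that an exon of the antisense gene TGFB2-AS1 also covers. LTBP1 had the full CRE, 94 to 87 bases before its start. Among the 21 windows, 5 held the half-site (23.8%), the other 2 being 1 of TGFBR1 (19 to 15 bases before its start) and a second of LTBP1 (147 to 143 bases before), against 21.2% of all 35116 windows in the table. The full CRE was in 1 (1.65% of all windows) and the TATA letters in 3 (10.7% of all). No window held the AP-1 element (6.57% of all) or the SMAD palindrome (0.182% of all). These matches describe letters only. TGFB3 has a second RefSeq start, at 75983011, with no match in its window. That start lies just beyond the 5' end of the GENCODE gene span, while the start of the window printed above, at 75981995, lies inside the span. Gene counts do not show which start was used.

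Between days 0 and 2, 7 of the 10 genes rose and 2 fell, where 66.8% of the 16327 genes tested were called, 33.4% higher and 33.4% lower. Between days 0 and 5, 8 rose and 2 fell, where 69.9% of all genes tested were called, 35.8% higher and 34.1% lower. From day 2 to day 5, 4 rose and 5 fell, where 65.8% were called, 32.1% higher and 33.7% lower. The median log2 fold changes of the 10 genes were 0.85, 1.07 and -0.35 in these comparisons, where the medians of all genes tested were 0.00, 0.04 and 0.01. A call is a Benjamini-Hochberg adjusted p under 0.05 over all genes tested, from edgeR's quasi-likelihood fit. Both libraries of a day lay beyond both of the other in 9, 10 and 10 of the 10 genes, as in 82.7%, 84.5% and 82.4% of all genes tested. Changes past 2-fold (edgeR's glmTreat) were called higher in 3 and lower in 0 of the 10 genes in the first comparison, where 12.5% of all genes were, 6.99% higher and 5.54% lower. In the second they were called higher in 5 and lower in 2, beside 20.1% of all (9.74% and 10.3%). In the third they were called higher in 2 and lower in 2, beside 14.4% of all (6.41% and 7.96%). Together the 10 genes took 0.508% and 0.509% of all counts on day 0, 1.21% in both libraries of day 2, and 0.834% and 0.840% of day 5. Most of that was TGFBI alone, at 0.331% and 0.332%, 0.963% and 0.959%, and 0.579% and 0.583%.

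The plot of levels by day shows 5 different courses. LTBP1, TGFB1 and TGFBR3 rose in both steps, a course shared by 7.3% of all genes tested. INHBA, TGFB2 and TGFBI rose to day 2 and then fell (17.3% of all). TGFBR2 and LTBP2 fell in both steps (9.64%). TGFBR1 rose on day 2 with no call after it (8.78%), and TGFB3 was called in the second step alone (10% of all genes share that pattern).

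**Figure D1:**
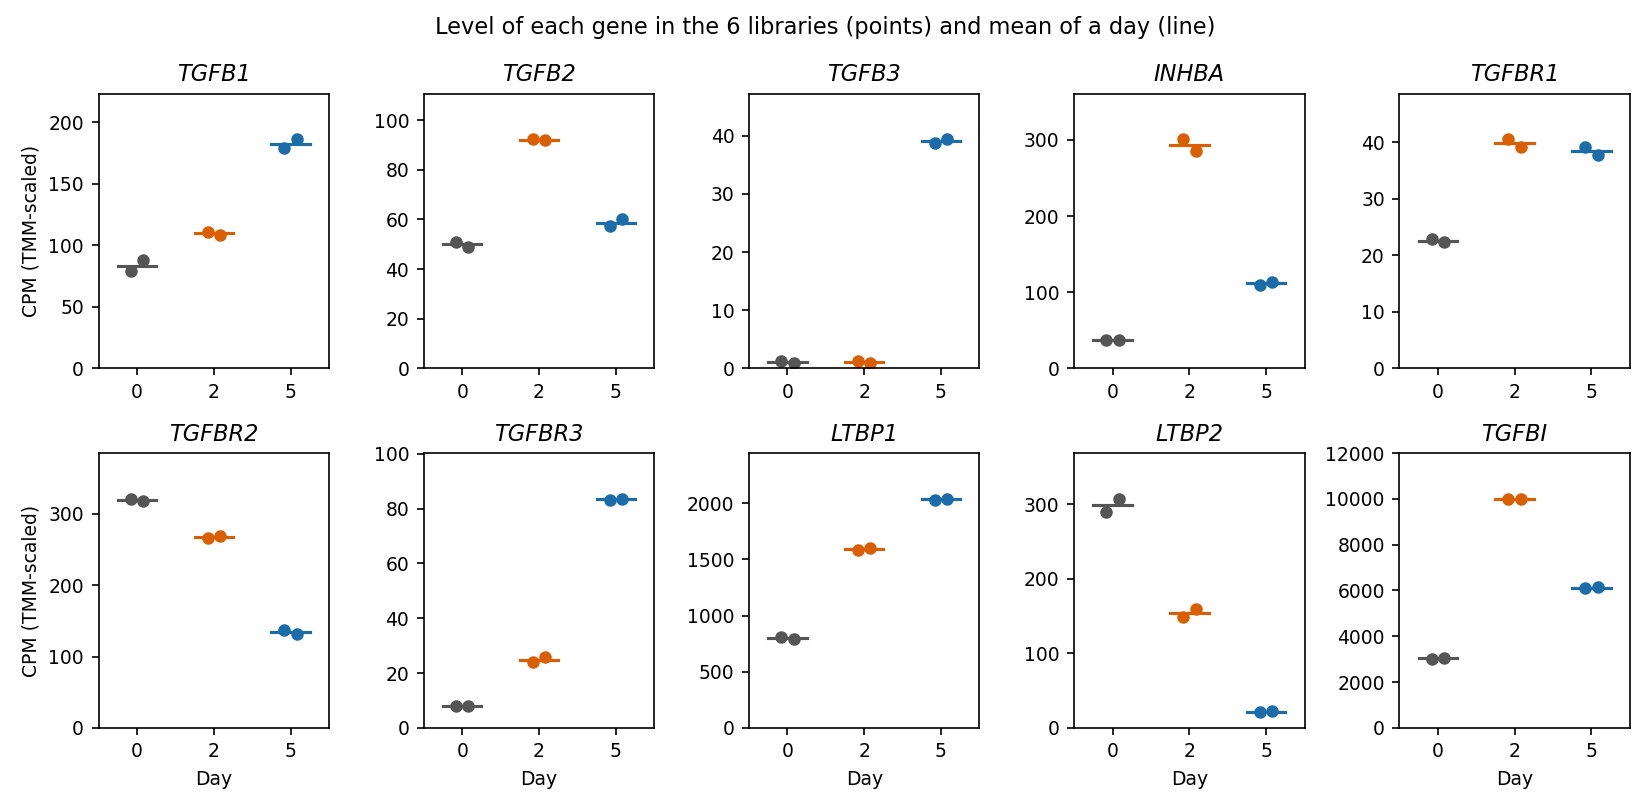
Levels of the 10 genes in CPM (vertical axis, linear from 0, a separate scale per gene) against day, with 1 point per library and a line at the mean of each day. TGFB3 lies near 1 CPM in the 4 libraries of days 0 and 2 and near 39 CPM on day 5, and LTBP2 drops from 298.6 to 21.8 CPM.

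Of the ligands, TGFB3 showed the largest fold change among the 10 genes. It encodes TGF-beta 3, an isoform best known from palate closure and scarless repair. The gene (ENSG00000119699, chromosome 14 at 75958099 to 75982991 of GRCh38) had 31 and 26 counts on day 0, 30 and 24 on day 2, and 648 and 722 on day 5. That is 1.22 and 0.894 CPM, 1.25 and 0.893 CPM, and 38.9 and 39.4 CPM. The libraries of days 0 and 2 overlapped, and those of day 5 stood apart. On day 5 the level was 37.0-fold that of day 0 (5.22 ± 0.16 SE on the log2 scale, with an edgeR adjusted p of 6.6e-15) and 36.5-fold that of day 2 (5.20 ± 0.16, edgeR adjusted p = 1.2e-14). From day 0 to day 2 the log2 fold change was 0.02 ± 0.27 (edgeR adjusted p = 0.954), and its sign turned with library totals, with DESeq2 and without 1 library of either day. The opposite-strand gene TGFB3-AS1, which shares 163 exonic bases with TGFB3, had 0 counts in all 6 libraries. IFT43, whose span contains TGFB3, shares no exonic base with it and had between 393 and 673 counts in a library.

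INHBA encodes the inhibin beta A chain, the subunit of activin A. It lies on chromosome 7 at 41667168 to 41705834 (ENSG00000122641). Its level was 37.1 and 36.6 CPM on day 0, 301 and 285 CPM on day 2, and 109.9 and 113.8 CPM on day 5. The 3 days did not overlap, and day 2 was the highest. It rose 7.95-fold to day 2 (by 2.99 ± 0.04 on the log2 scale, edgeR adjusted p = 2.7e-19) and then fell by 1.39 ± 0.04 on the log2 scale (edgeR adjusted p = 2.1e-15), to 3.03 times the day 0 level. INHBA-AS1, its antisense neighbour, had between 0 and 9 counts in a library and was not tested.

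TGFB1 encodes the most widely expressed ligand of the family (ENSG00000105329, chromosome 19 at 41301587 to 41353911). It stood at 78.7 and 87.9 CPM on day 0, 111 and 108 CPM on day 2, and 179 and 186 CPM on day 5, in order of day and without overlap. The rise to day 5 was 2.19-fold (log2 fold change 1.13 ± 0.05, edgeR adjusted p = 5.7e-13). The first step gave 0.39 ± 0.05 (edgeR adjusted p = 1.2e-06) and the second 0.74 ± 0.05 (edgeR adjusted p = 2.2e-10), and the difference between the steps was not tested. HNRNPUL1, on the other strand, shares 215 of the 3238 exonic bases of TGFB1 and had between 4559 and 6485 counts in a library. Whether reads from the shared bases entered the TGFB1 counts was not tested.

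TGFB2, whose product needs the coreceptor betaglycan for high-affinity binding to the type II receptor, lies on chromosome 1 at 218346235 to 218444619 (ENSG00000092969). It was at 51.0 and 48.9 CPM on day 0, 92.3 and 92.0 CPM on day 2, and 57.2 and 60.0 CPM on day 5. Day 2 was the highest, and day 5 lay a little above day 0. The rise to day 2 was 1.84-fold (log2 fold change 0.88 ± 0.05, edgeR adjusted p = 2.6e-11). It fell by 0.65 ± 0.05 on the log2 scale from day 2 to day 5 (edgeR adjusted p = 2.8e-09). Day 5 versus day 0 was called at 0.23 ± 0.05 (edgeR adjusted p = 7.6e-04), but not with library totals (0.03, edgeR adjusted p = 0.677). TGFB2-OT1, a noncoding gene on the same strand, lies within TGFB2 and shares 1371 of its 5151 exonic bases, so their reads cannot be told apart there. That gene had 15.1 and 36.5 counts on day 0, 135 and 147 on day 2, and 35.8 and 35.7 on day 5, and was higher on day 2 by 2.57 ± 0.28 on the log2 scale (edgeR adjusted p = 3.7e-07). Its call from day 0 to day 5 (1.14 ± 0.32, edgeR adjusted p = 0.0047) was lost without day 0 replicate 1 (adjusted p = 0.0551). TGFB2-AS1 had at most 3 counts in a library.

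The mix of the 3 TGF-beta ligand genes differed between days. Per kilobase of the deposited gene length, TGFB1 made up 74.5% ± 2.2 (SD, n = 2) of their counts on day 0, 68.0% ± 0.27 on day 2 and 74.1% ± 0.11 on day 5. TGFB2 made up 24.7% ± 1.9, 31.4% ± 0.38 and 13.1% ± 0.097, and TGFB3 0.773% ± 0.21, 0.538% ± 0.12 and 12.9% ± 0.21. On day 5 the TGFB2 and TGFB3 shares were thus close, with TGFB2 at 11.6 ± 0.39 and TGFB3 at 11.4 ± 0.11 CPM per kb. With exon-union lengths from GENCODE the TGFB3 share on day 5 was 10.5%, and TGFB2 then stood at 11.4 against 7.96 CPM per kb. Within a library, there were 64.4 and 98.3 TGFB1 counts per TGFB3 count on day 0, 88.9 and 121 on day 2, and 4.60 and 4.72 on day 5.

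**Figure D2:**
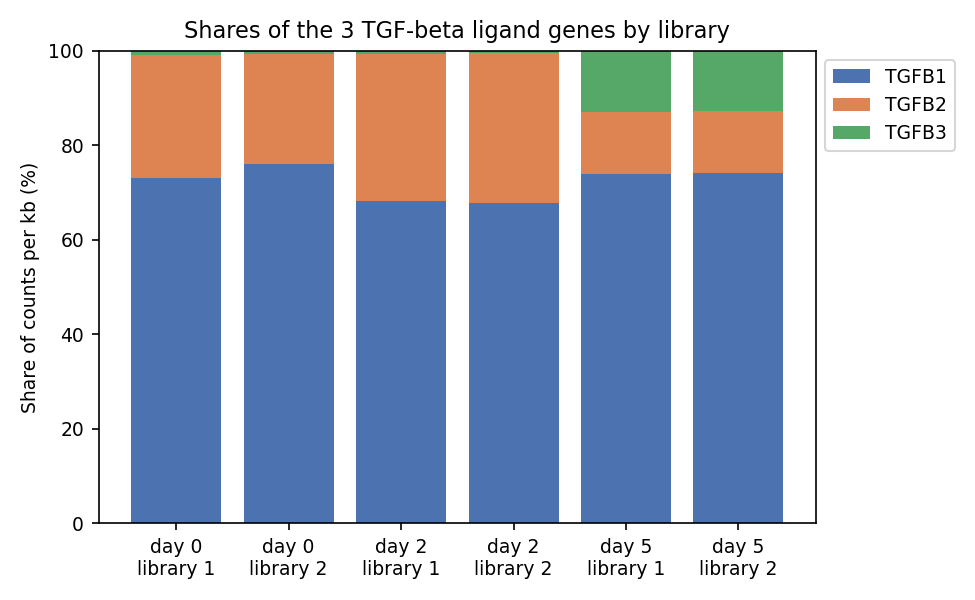
Shares of TGFB1, TGFB2 and TGFB3 (percent of their summed counts per kb of deposited gene length, vertical axis) in each of the 6 libraries. The TGFB3 part is under 1% at days 0 and 2 and reaches 12.9% on day 5, while the TGFB2 part goes from 31.4% on day 2 to 13.1%.

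The 3 receptor genes did not move together. TGFBR3 encodes betaglycan, the type III receptor, which presents ligand and also binds inhibin (ENSG00000069702, chromosome 1 at 91680343 to 91906335). Its level was 7.97 and 7.94 CPM on day 0, 24.0 and 25.8 CPM on day 2, and 83.2 and 83.6 CPM on day 5. Each day lay above the one before it, by 3.13-fold (1.65 ± 0.08 on the log2 scale, edgeR adjusted p = 1.0e-11) and then by 3.35-fold (1.74 ± 0.06, edgeR adjusted p = 9.4e-14). Over both steps the rise was 10.5-fold (3.39 ± 0.07, edgeR adjusted p = 5.6e-17).

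TGFBR2 encodes the type II receptor kinase that binds ligand directly (ENSG00000163513, chromosome 3 at 30606502 to 30694142). It was at 321 and 318 CPM on day 0, 267 and 268 CPM on day 2, and 138 and 132 CPM on day 5, so both later days lay below day 0. The fall to day 5 was 2.37-fold (log2 fold change -1.25 ± 0.03, edgeR adjusted p = 4.3e-16), most of it after day 2 (-0.99 ± 0.03, edgeR adjusted p = 2.0e-14). The first step was -0.25 ± 0.03 (edgeR adjusted p = 3.9e-07).

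TGFBR1 encodes ALK5, the type I receptor kinase that phosphorylates SMAD2 and SMAD3 (ENSG00000106799, chromosome 9 at 99104038 to 99154192). Its level was 22.8 and 22.3 CPM on day 0, 40.5 and 39.2 CPM on day 2, and 39.2 and 37.6 CPM on day 5. It rose 1.77-fold to day 2 (log2 fold change 0.82 ± 0.07, edgeR adjusted p = 6.3e-09). Day 5 versus day 2 gave -0.05 ± 0.06 (edgeR adjusted p = 0.485). The higher day 5 library nearly met the lower day 2 library.

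Within a library, where scaling between libraries plays no part, TGFBR2 counts drew closer to those of TGFBR3 and TGFBR1. There were 40.3 and 40.0 TGFBR2 counts per TGFBR3 count on day 0, 11.1 and 10.4 on day 2, and 1.65 and 1.57 on day 5. TGFBR2 counts per TGFBR1 count were 14.1 and 14.3, then 6.59 and 6.85, then 3.52 and 3.50. TGFBR3 and TGFBR1 instead changed order, with 202 and 231 TGFBR3 counts beside 578 and 649 of TGFBR1 on day 0. On day 5 there were 1388 and 1531 TGFBR3 counts beside 653 and 689 of TGFBR1. Per kilobase of deposited length, the order of levels on day 0 was TGFBR2 (69.4 CPM per kb), TGFBR1 (3.80) and TGFBR3 (2.03). On day 5 it was TGFBR2 (29.2 ± 0.96), TGFBR3 (21.2 ± 0.061) and TGFBR1 (6.47 ± 0.18), and GENCODE lengths gave the same order. The deposited lengths are of unstated origin, and with GENCODE lengths TGFBR3 on day 5 was lower, at 9.58 CPM per kb beside 28.6 for TGFBR2.

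**Figure D3:**
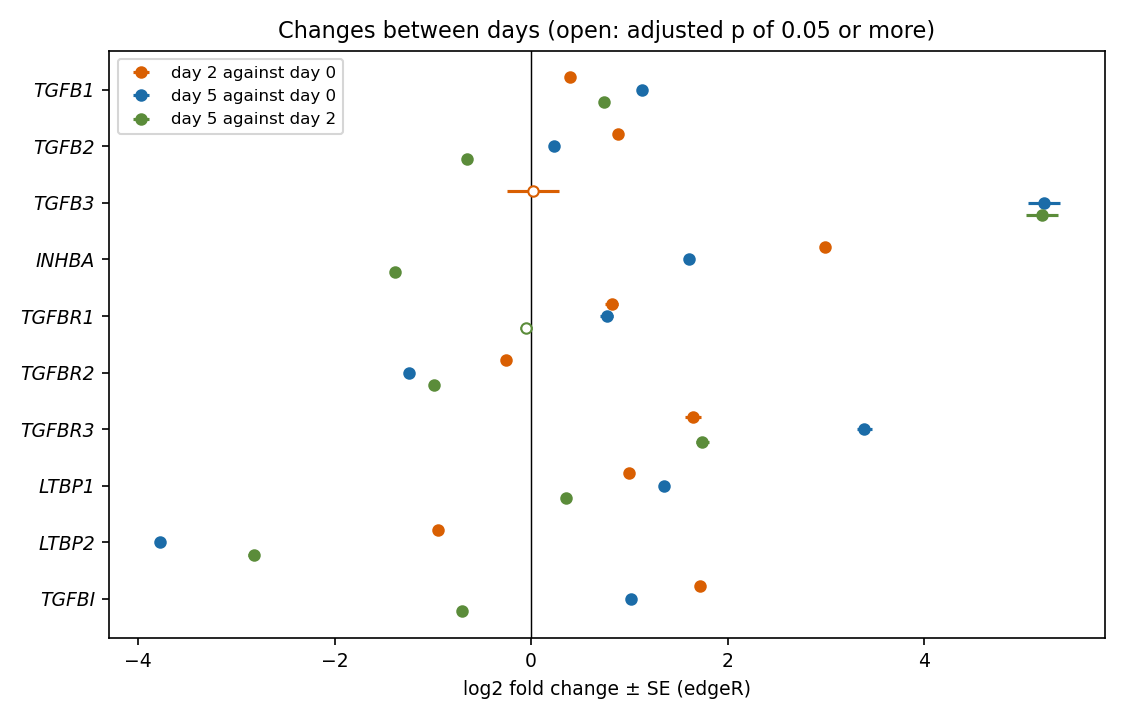
Log2 fold changes with standard errors from edgeR (horizontal axis) for the 10 genes in the 3 comparisons, which share libraries; open points had an adjusted p of 0.05 or more. TGFB3 at 5.22 and LTBP2 at -3.78, both from day 0 to day 5, are the outermost points.

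LTBP1 and LTBP2, both named as latent TGF-beta binding proteins, moved in opposite directions. LTBP1 encodes a binding protein that ties the latent ligand complex to the matrix (ENSG00000049323, chromosome 2 at 32946972 to 33399509). It stood at 806 and 790.3 CPM on day 0, 1586 and 1598 CPM on day 2, and 2033 and 2039 CPM on day 5, when it was the gene with the 35th highest count in both libraries. The rise was 2.55-fold from day 0 to day 5 (log2 fold change 1.35 ± 0.02, edgeR adjusted p = 3.7e-20). The first step gave 1.00 ± 0.02 (edgeR adjusted p = 4.8e-18) and the second 0.35 ± 0.02 (edgeR adjusted p = 4.7e-12).

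LTBP2, a relative that sits in elastic fibres and, unlike LTBP1, is not known to bind latent TGF-beta, lies on chromosome 14 at 74498170 to 74612378 (ENSG00000119681). It was at 289.8 and 307 CPM on day 0, 149 and 159 CPM on day 2, and 21.5 and 22.1 CPM on day 5. Each day lay below the one before. The drop to day 5 was 13.7-fold (log2 fold change -3.78 ± 0.05, edgeR adjusted p = 1.6e-19), made of -0.95 ± 0.04 to day 2 (edgeR adjusted p = 4.5e-13) and -2.82 ± 0.06 after it (edgeR adjusted p = 3.1e-17). Within a library, LTBP1 counts per LTBP2 count were 2.78 and 2.57 on day 0, 10.6 and 10.0 on day 2, and 94.4 and 92.5 on day 5.

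TGFBI encodes a secreted adhesion protein named for its induction by TGF-beta (ENSG00000120708, chromosome 5 at 136028895 to 136063818). Per kilobase it was the most abundant of the 10 genes on every day, at 1119, 3683 and 2258 CPM per kb of deposited length, with LTBP1 next at 123, 245 and 313. With GENCODE lengths TGFBI was at 388, 1279 and 784 CPM per kb and LTBP1, still next, at 109, 217 and 278. Its level was 3019.6 and 3048 CPM on day 0, 10001 and 9975 CPM on day 2, and 6106 and 6143 CPM on day 5. On day 2 it took 0.963% and 0.959% of all counts and was the gene with the 6th and 5th highest count. The rise to day 2 was 3.29-fold (1.72 ± 0.01 on the log2 scale, edgeR adjusted p = 2.8e-23), and it fell by 0.71 ± 0.01 on the log2 scale after that (edgeR adjusted p = 2.2e-18). Day 5 still lay 2.02-fold above day 0.

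Some of these calls were of small changes between libraries that lay very close together. When every gene was given a coefficient of variation of 20% or more, calls were lost for TGFB1 (adjusted p = 0.305) and TGFBR2 (0.531) from day 0 to day 2, TGFB2 from day 0 to day 5 (0.562) and from day 2 to day 5 (0.07), and LTBP1 from day 2 to day 5 (0.361). Library totals in place of TMM factors moved the median gene by -0.18 on day 2 and -0.21 on day 5 on the log2 scale. Of all calls, 38.1% were then higher from day 0 to day 2, compared with 50.01% under TMM scaling, and 39.0% compared with 51.2% from day 0 to day 5. Under those totals the 10 genes had 7 higher and 2 lower in both comparisons with day 0.

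Each of the 10 genes was set beside the tested genes nearest to it by the pair of log2 fold changes from day 0 (Euclidean distance, among 10605 other genes of at least 5 CPM). The 2 nearest to TGFB3 were PPARGC1A, a coactivator of mitochondrial biogenesis (distance 0.19), and IGFBP5, which binds insulin-like growth factors (0.20). IGFBP5 was at 3467 and 3465 CPM on day 0 and at 113097 and 113084 CPM on day 5. The nearest to LTBP2 was FBLN5, an elastic fibre protein (0.07), at 215 and 214 CPM on day 0 and 13.0 and 16.9 CPM on day 5. To INHBA it was the iron exporter SLC40A1 (0.07). TGFBR3 had SLC44A1, a choline transporter, nearest (0.09) and FST, the activin antagonist follistatin, next (0.21). For the other 6 genes the nearest lay at 0.01 to 0.08, namely ABL1 for TGFB1, JRKL for TGFB2, HS2ST1 for TGFBR1, FKBP1B for TGFBR2, OFD1 for LTBP1 and UFL1 for TGFBI. This likeness rests on 3 days only, and both fold changes share the day 0 libraries.

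Among other ligands and antagonists, 8 of 12 genes had enough counts to be tested. From day 0 to day 2, 3 rose and 3 fell, from day 0 to day 5, 4 rose and 3 fell, and from day 2 to day 5, 3 rose and 5 fell. Of all genes tested, 33.4% were called higher and 33.4% lower from day 0 to day 2, and 35.8% and 34.1% from day 0 to day 5. From day 2 to day 5 the shares were 32.1% and 33.7%. The medians over all genes tested were 0.00, 0.04 and 0.01 on the log2 scale. These shares and medians also stand beside the lists that follow. For this list the medians were 0.12, 0.48 and -0.35. With library totals the first median was -0.06. FST stood at 75.5 CPM in both day 0 libraries, 261 and 272 on day 2, and 862 and 847 on day 5, without overlap. That was an 11.3-fold rise over both steps (log2 fold change 3.50 ± 0.03, edgeR adjusted p = 1.6e-22). There were 0.492 and 0.485 INHBA counts per FST count on day 0, 1.15 and 1.05 on day 2, and 0.128 and 0.134 on day 5. FSTL3, a related activin inhibitor, fell 3.31-fold by day 5, from 79.6 ± 0.20 to 24.1 ± 0.22 CPM (SD, n = 2). GDF15, a distant family member known as a stress-induced cytokine, went from 69.2 ± 0.75 to 835 ± 23 CPM on day 2 and 285 ± 9.6 on day 5. DCN, a matrix proteoglycan that can bind TGF-beta, fell 5.16-fold by day 5. FSTL1 moved less, from 878 to 614 CPM. LEFTY2 had 0 counts throughout.

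Of the 10 other receptors and coreceptors, all tested, 4 rose and 1 fell from day 0 to day 2, or 3 and 3 with library totals. From day 0 to day 5, 4 rose and 5 fell, and from day 2 to day 5, 3 rose and 4 fell. The medians were 0.30, 0.19 and 0.15. The second of these was -0.02 with library totals, so no direction is given for the list. ENG, which encodes endoglin, a coreceptor related to betaglycan, fell 2.28-fold on day 2, with levels of 298 ± 9.7, 130.5 ± 1.6 and 127 ± 3.2 CPM on the 3 days. CD109, a membrane coreceptor that dampens the signal, rose to 258 ± 6.1 CPM on day 2 from 132 ± 2.0 and then fell to 71.96 ± 0.86. ACVR1B, the activin type I receptor ALK4, was at 37.7 ± 0.57, 37.45 ± 1.3 and 66.4 ± 0.72 CPM, a rise from day 0 to day 5 of 0.82 ± 0.06 on the log2 scale (edgeR adjusted p = 5.9e-10). The pseudoreceptor BAMBI fell by 0.94 ± 0.09 in that comparison, to 14.1 ± 0.97 CPM. ACVR1 and ACVRL1 had log2 fold changes of 0.57 and -0.19, and neither was called with the assumed 20% variation (adjusted p = 0.11 and 0.64).

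Among genes of latency and activation, 11 of 12 were tested, with ITGB6 at 0 counts in every library. From day 0 to day 2, 8 rose and 2 fell, from day 0 to day 5 again 8 and 2, and from day 2 to day 5, 5 and 5. With library totals the first 2 splits were 6 and 2, and 6 and 3. The medians were 0.52, 0.45 and -0.21. ITGB8, the beta chain of an integrin that activates latent TGF-beta, was at 2.29 and 3.20 CPM on day 0, 19.7 and 19.65 on day 2, and 58.4 and 57.3 on day 5. The days did not overlap, and the whole rise was 21.1-fold (log2 fold change 4.38 ± 0.11, edgeR adjusted p = 5.3e-16). Its alpha partner ITGAV was highest on day 2, at 296 ± 5.6 CPM from 107.5 ± 1.7, and stood at 177 ± 0.72 on day 5. LTBP4 was at 352 ± 9.9, 386 ± 11 and 1831 ± 25 CPM, a 4.75-fold rise from day 2 to day 5. LTBP1 counts per LTBP4 count were 2.34 and 2.20 on day 0, 4.19 and 4.06 on day 2, and 1.12 and 1.10 on day 5. THBS1, a matricellular activator of the latent complex, was at 1555 and 1576 CPM on day 0, rose to 3194 and 3226 on day 2, and then fell 13.2-fold to 246 and 239. FBN1, the fibrillin that anchors latent complexes, rose 1.96-fold by day 5.

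Of 17 genes of the SMAD pathway and its regulators, 16 were tested. In the first step, day 0 to day 2, 9 rose and 6 fell, from day 0 to day 5, 7 and 6 (6 and 8 with library totals), and from day 2 to day 5, 6 and 9. The medians were 0.43, 0.05 and -0.31, and the second was -0.15 with library totals. SMURF2, a ubiquitin ligase that targets the receptors and SMADs, fell from 281 and 273 CPM on day 0 to 60.5 and 66.0 on day 2 and 24.95 and 27.0 on day 5. That was a 10.7-fold fall by day 5 (log2 fold change -3.41 ± 0.05, edgeR adjusted p = 5.6e-19). The corepressor TGIF1 went from 31.4 ± 1.9 to 129.5 ± 2.8 CPM on day 2 and 74.2 ± 2.5 on day 5. SMAD4, the shared partner SMAD, rose 2.23-fold by day 5, from 26.0 ± 2.1 to 57.95 ± 0.66 CPM. SKIL and PMEPA1, negative regulators that TGF-beta itself induces, rose 2.47-fold and 2.99-fold by day 5. SMAD7 and SMAD6, the inhibitory SMADs of the same list, fell 1.82-fold and 2.51-fold by day 5. SKI, the relative of SKIL, fell 1.63-fold on day 2 and was at 101 ± 5.2 CPM on day 5.

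The 26 TGF-beta target genes, 25 of them tested, were split. From day 0 to day 2, 14 rose and 7 fell (11 and 8 with library totals), from day 0 to day 5, 15 and 8, and from day 2 to day 5, 10 and 10. The medians were 0.42, 0.69 and 0.08. TAGLN, a smooth muscle actin-binding protein, fell from 789.6 and 810.1 CPM on day 0 to 193 and 202 on day 2 and 5.64 and 5.51 on day 5. The days did not overlap, and the fall over both steps was 143-fold (log2 fold change -7.16 ± 0.05, edgeR adjusted p = 2.0e-23). TIMP3, an inhibitor of matrix proteases, rose 16.3-fold on day 2 and stood at 6223 ± 23 CPM on day 5, from 272 ± 4.6 on day 0. The collagen genes COL1A2 and COL3A1 rose 2.84-fold and 2.53-fold by day 5. COL1A1 fell 3.98-fold on day 2 and then rose 3.46-fold. These targets are also regulated by other pathways.

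**Figure D4:**
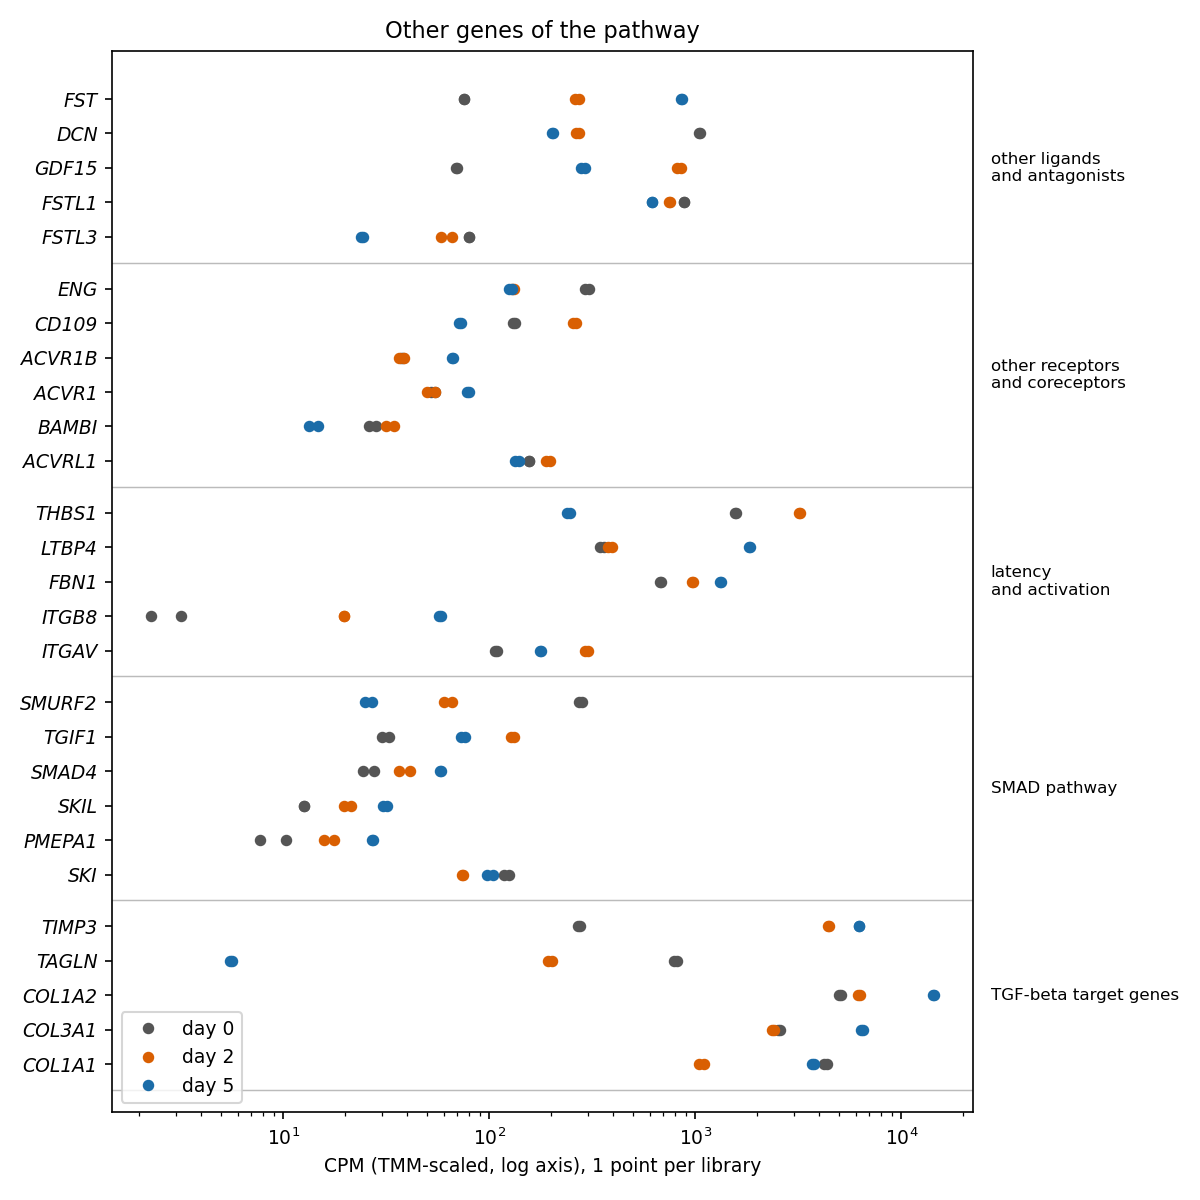
Levels in CPM (horizontal log axis) of the other pathway genes described and named by rule, 1 point per library, coloured by day and grouped by list. FST and ITGB8 shift to the right from day 0 to day 5, to 854 and 57.8 CPM, and SMURF2 and TAGLN shift to the left, to 26.0 and 5.58 CPM.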

How the data were processed

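The authors deposited expected counts, which are estimates and so need not be whole, without scaling, per the file headers. Their gene lengths in bases were used too, and their means per day were not. The submitters' processing notes name GRCh38. Aligner, counter, annotation and strand use are not given in the sources used here. TruSeq libraries were made from DNase-treated TRIzol RNA, per the labels' protocols. Total counts were 17605858 to 27953926 per library.

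Of 60843 genes, 172 had no name and were left out (0.0356 to 0.0475% of counts). Counts were rounded to whole numbers. Within 1e-09, 87.2% of all values in the 60843 genes already were, zeros included, and 64.9% of values above 0. All 6 libraries entered 1 fit by day with edgeR 4.0.16 under R 4.3.3. The filter was filterByExpr (minimum count 10, total 15), which left 16327 genes, scaling was by TMM, and the two-sided quasi-likelihood test had 3 residual degrees of freedom. The SE is the log2 fold change over the square root of F. Folds are ratios of mean CPM over 2 libraries. The fit was also run on simulated counts, with 1 common coefficient of variation of 3.33% for all genes and most genes unchanged. Those settings differ from these data, so that run cannot show how reliable the calls are here. Named by rule were all 10 members, 3 overlapping or antisense RNAs and the 2 nearest genes of each member. So were the 5 genes of each pathway list with the lowest adjusted p for day 5 and the 3 for day 2, each against day 0. Of the 20 nearest genes 12 are described, and 1 target gene is not reported here. The marker genes, HNRNPUL1, IFT43, TGFB3-AS1, LEFTY2, ITGB6, SMAD6 and SMAD7 were named after their values were seen. The members and lists were chosen with earlier results of these data known. Other settings included DESeq2 1.42.0. Coordinates came from GENCODE release 29 on GRCh38, by gene identifier. Promoter sequences came from RefSeq (GRCh38.p14).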

Additional observations from a re-analysis of the deposited data

How the results depend on the processing

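The log2 fold changes of the 10 genes kept their sign under RLE factors, library totals, DESeq2, other count filters, fits of only the days compared, the replicate block and leaving out each library, with 1 exception. TGFB3 between days 0 and 2, not called, was -0.0035 under DESeq2 and -0.16 under library totals, and -0.23 to 0.25 when 1 library was left out (-0.21 for day 0 replicate 2, -0.23 for day 2 replicate 1). No pairing of the libraries by replicate number was seen (correlations of replicate deviations 0.0027, -0.0024 and -0.0050). A pairing hidden by technical variation could be missed this way. With the replicate block, 7 members were higher and 2 lower between days 0 and 2, 8 and 2 between days 0 and 5, and 4 and 5 between days 2 and 5, and 5408 and 5398, 5737 and 5560, and 5156 and 5486 of all genes. Depth limits TGFB3 most, with 24 to 31 counts in a library before day 5.

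The next values follow the order days 0 to 2, 0 to 5 and 2 to 5. Past 2-fold, by glmTreat, 1141 genes were higher and 904 lower, then 1591 and 1687, then 1046 and 1299, and members 3 and 0, 5 and 2, and 2 and 2. Called past 2-fold were 4, 3 and 4 latency genes, 2, 2 and 2 other receptors, 2, 7 and 2 SMAD pathway genes and 9, 13 and 13 targets, with 3 other ligands and antagonists in the first and 3 in the last comparison. Of the 3 overlapping or antisense RNAs named by rule, TGFB2-OT1 alone was tested. Among these RNAs 0 were called past 2-fold between days 0 and 5 and 0 between days 2 and 5. Without 1 library, 0 to 1 was called between days 0 and 5, with 0 without day 0 replicate 1. With an assumed variation of at least 20%, added after the data were seen, 2812 genes were higher and 2473 lower, then 3414 and 3173, then 2631 and 2819. Of the members, 6 were then higher and 1 lower, then 7 and 2, then 3 and 4. Called were 5, 6 and 5 latency genes, 3 other receptors in the first and 4 in the last comparison, 7 and 4 SMAD pathway genes in the same 2, 11 targets in the first and 5 other ligands and antagonists in the last. These settings demand more of each gene by construction.

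Shares of TGFB1 on days 0, 2 and 5 were 72.1%, 65.2% and 74.5% with GENCODE lengths and 61.95%, 54.0% and 65.1% without lengths. Those of TGFB2 were 27.3%, 34.4% and 15.03%, and 37.3%, 45.4% and 20.9%. TGFB3 on day 5 took 10.5% and 13.97%. These were added after the data were seen.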
